A study of Caenorhabditis elegans with 2 samples.

Results

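The genes skn-1 and wdr-23 of the nematode Caenorhabditis elegans, and the regions around them in a ChIP-seq map of the nuclear hormone receptor NHR-28, are described here. ChIP-seq, chromatin immunoprecipitation followed by sequencing, recovers the DNA that a protein occupies. They are 2 of the 19973 nuclear protein-coding genes, chosen by name with peaks of these same lists already known, and every region with its summit in either gene or within 5 kb of it was taken. This gave 16 of the 30000 candidate regions of the list made from both replicates, 10 at skn-1 and 6 at wdr-23, and 3 of the 159 peaks that passed the authors' threshold, 2 at skn-1 and 1 at wdr-23. These values are given as a description, with no test, because they chose the genes.

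All animals were L1 larvae of strain OP317, whose labelled genotype is unc-119(ed3) III together with wgIs317, an integrated insertion that carries eGFP-tagged NHR-28. Whole worms, pooled male and female, were used, so occupancy in different tissues cannot be told apart. The 2 biological replicates form a single group, with neither another condition nor another strain or time to set them against. The antibody field of the labels names nhr-28, and the promoter of the tagged gene, the strain of the control and the age of the larvae are not given in the labels. NHR-28 belongs to the nuclear hormone receptors, DNA-binding transcription factors of which many answer to small lipophilic ligands. The lists show where the tagged protein was recovered, and no change in it.

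SKN-1 is a transcription factor related to the mammalian Nrf proteins. It binds DNA as a monomer through a basic region, at sites with the core letters ATCAT or GTCAT. It is known for turning on detoxification and antioxidant genes under oxidative stress, for specifying mesendoderm in the early embryo and, as its isoform SKN-1A, for raising proteasome gene expression. WDR-23 is a WD40-repeat protein that joins SKN-1 to a CUL-4 and DDB-1 ubiquitin ligase, so that SKN-1 is degraded in unstressed worms. The isoforms of SKN-1 start at different places in the gene, and those places are the reference points used here.

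The DNA under 4 summits at skn-1 is shown first, because the place and letters of these windows carry the description. All 4 are 200 bp windows of chromosome IV of the ce11 build, read from the RefSeq genome WBcel235, which is the same assembly. They are given on the minus strand, which is the strand of skn-1, and centred on the summit. Capitals mark the core letters GTCAT and ATCAT on either strand. The first line is the highest peak at skn-1 (IV from 5656046 to 5656245), the next is the other thresholded peak (5657126 to 5657325), the third is the region nearest upstream of the longest transcript (5660997 to 5661196), and the last is a region that lies just beyond the 5 kb limit (5665614 to 5665813).
skn-1 peak of rank 107: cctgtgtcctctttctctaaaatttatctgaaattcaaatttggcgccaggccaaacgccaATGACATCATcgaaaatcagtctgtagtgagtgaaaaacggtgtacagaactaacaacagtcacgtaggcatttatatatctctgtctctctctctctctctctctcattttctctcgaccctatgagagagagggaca
skn-1 peak of rank 149: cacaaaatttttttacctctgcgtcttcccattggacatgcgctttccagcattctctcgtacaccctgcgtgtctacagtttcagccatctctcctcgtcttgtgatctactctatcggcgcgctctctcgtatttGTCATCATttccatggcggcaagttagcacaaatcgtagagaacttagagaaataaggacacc
skn-1 upstream region of rank 1712: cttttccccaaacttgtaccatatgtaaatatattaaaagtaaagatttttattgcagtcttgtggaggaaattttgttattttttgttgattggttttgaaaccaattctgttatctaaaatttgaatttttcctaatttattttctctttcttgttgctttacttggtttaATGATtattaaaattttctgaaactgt
region of rank 181 beyond 5 kb: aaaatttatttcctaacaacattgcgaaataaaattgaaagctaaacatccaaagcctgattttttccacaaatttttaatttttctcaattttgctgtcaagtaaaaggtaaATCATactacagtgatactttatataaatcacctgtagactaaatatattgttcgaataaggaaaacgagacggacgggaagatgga

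Both thresholded windows were richer in G and C than the others shown and held CT repeats, longest in the peak of rank 107. Their GC contents were 42.0% (rank 107) and 46.5% (rank 149). A GC content as high as 42.0% was found in 49.3% of the 134 nuclear thresholded windows. One as high as 46.5% was found in 25.4% of them and in 2.68% of the 29975 nuclear candidate windows. The upstream region had 24.5%, and the region beyond the limit 29.5%.

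Both strong skn-1 peaks lay in the long first intron of the skn-1a transcript T19E7.2a.1, upstream of the start of skn-1c. The gene, WBGene00004804, runs from 5651039 to 5660384 on IV, on the minus strand, and is 9346 bp long. Its 4 annotated transcripts start at 5660384 (T19E7.2a.1), 5655605 (T19E7.2c.1), 5653229 (T19E7.2b.1) and 5652640 (T19E7.2d.1). Those of T19E7.2a.1, T19E7.2c.1 and T19E7.2d.1 are annotated from their first coding base, so the true transcription starts may lie further upstream than the distances given here.

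The highest peak, from 5655981 to 5656310, had its summit at 5656146, which is 541 bp upstream of the skn-1c start and 4238 bp into the skn-1a transcript. The authors' signal was 55.1, rank 107 of the 30000 candidate regions. The signal ranks regions within 1 list and cannot be compared between lists. In replicate 1 the overlapping region had signal 47.8 and rank 40, and in replicate 2 it had signal 20.8 and rank 424. The peak was thus among the 159 highest regions of replicate 1 and not among those of replicate 2. The replicate summits lay 112 bp (replicate 1) and 14 bp (replicate 2) from the summit of the joint list.

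The other thresholded peak, from 5657061 to 5657390, had its summit at 5657226, in the same intron and 1621 bp upstream of the skn-1c start. Its signal was 49.8, rank 149, close to the end of the thresholded list. The last peak inside the threshold had signal 48.94 and the first region outside it 48.85. Ranks in the replicates were 89 (signal 36.7) and 843 (signal 18.3). Here too the higher rank was that of replicate 1, and the replicate summits lay 10 and 30 bp from the joint one.

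The same intron held 1 more candidate region, with its summit at 5658055, signal 17.9 and rank 13004. It overlapped a region of rank 8617 in replicate 2 and none in replicate 1. All 3 candidate regions inside skn-1 in the joint list were therefore in this 4347 bp intron (5655909 to 5660255). It also holds the noncoding RNA genes T19E7.26 and T19E7.27, and the peak of rank 149 overlapped T19E7.26 (5657318 to 5657370).

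**Figure D1:**
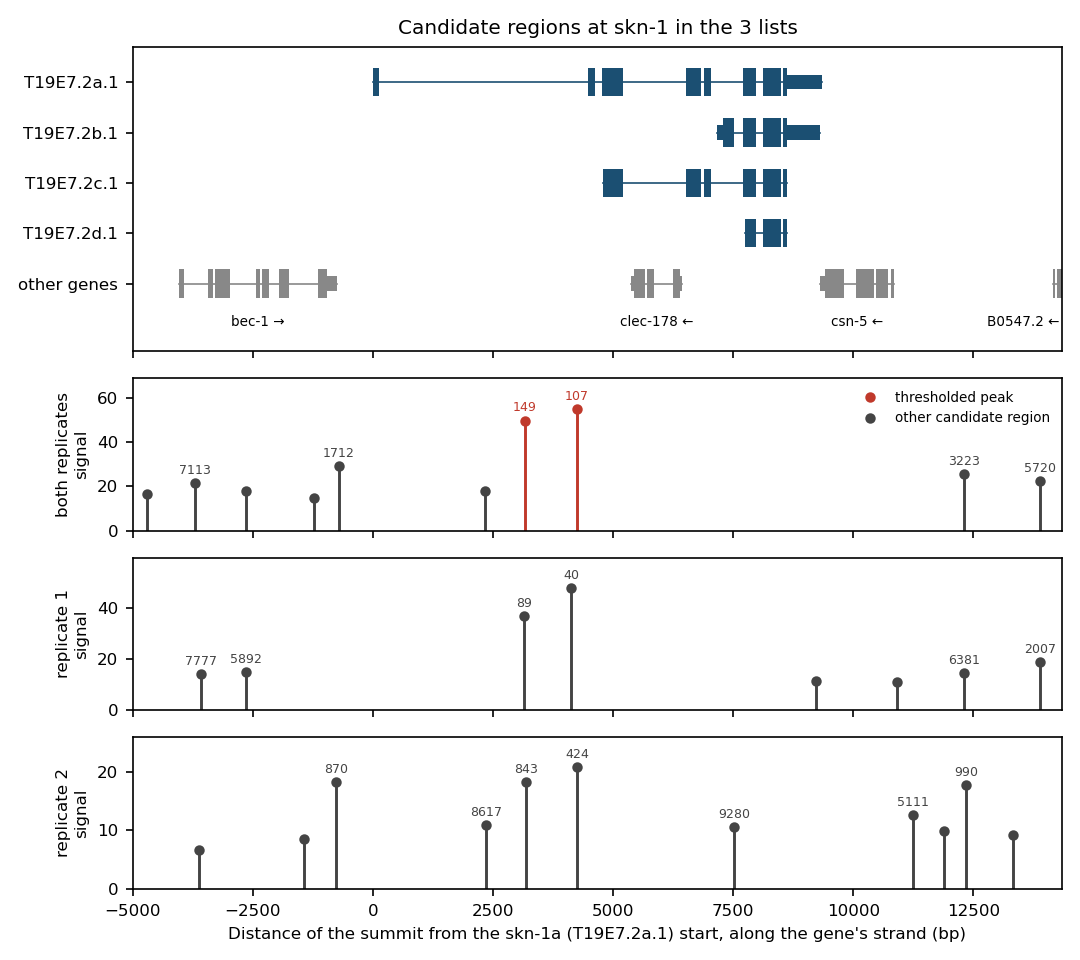
Candidate regions around skn-1. The upper panel shows the 4 skn-1 transcripts (tall boxes coding, low boxes untranslated) and other protein-coding genes with arrows for their direction relative to skn-1, and the lower panels show the authors' signal at each summit in the list of both replicates, replicate 1 and replicate 2, against the distance in bp from the skn-1a start. Numbers are ranks of 10000 or better, and the thresholded peaks of rank 107 and 149 (red) stand between the skn-1a and skn-1c starts.

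The other skn-1 starts had weaker regions or none. Upstream of skn-1a, the nearest region had its summit at 5661097, 713 bp before the start, with signal 29.1 and rank 1712. Replicate 2 had an overlapping region there, 771 bp upstream, of signal 18.2 and rank 870, close to its rank for the second intronic peak. Replicate 1 had none among its 30000 regions, so the region upstream of skn-1a was seen in 1 of 2 replicates. The skn-1b start had no region of the joint list within 1 kb, the nearest being the highest peak, 2917 bp upstream. Replicate 2 alone had a region of rank 9280 with its summit at 5652862, 367 bp into the skn-1b transcript and 222 bp upstream of the skn-1d start. Replicate 1 alone had a region of rank 14517 in the 3' UTR of skn-1, at 5651157.

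The remaining 6 regions of the joint list within 5 kb of skn-1 lay at its neighbours. In 4 of them, with ranks from 7113 to 22146, the nearest protein-coding start was that of bec-1. This Beclin gene of autophagy lies upstream on the same strand (5661141 to 5664425). Noncoding genes were left out of that search. The summit of rank 12782 lay in an exon of the noncoding gene T19E7.24. The region of rank 16481 overlapped the snoRNA gene T19E7.29 (5664715 to 5664938). The other regions among the 6 lay beyond the 3' end of skn-1. The one of rank 3223 (summit 5648072) was in an intron of a pseudogene. Its nearest protein-coding start was that of csn-5, which encodes a subunit of the COP9 signalosome and overlaps the end of skn-1. This region ranked 6381 in replicate 1 and 990 in replicate 2. The one of rank 5720 was nearest, among protein-coding starts, to that of B0547.2. The C-type lectin gene clec-178, which sits inside skn-1 on the opposite strand, held no summit of the joint list. Beyond the 3' end of skn-1 the window also held 6 piRNA genes, between 5646194 and 5648825.

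Just beyond the limit, 5330 bp upstream of the skn-1a start, lay a region with its summit at 5665714. Its signal was 46.7, rank 181, which puts it close below the threshold. Its nearest protein-coding start was that of bec-1, 1289 bp away, and the snoRNA gene T19E7.29 lies between. The region ranked 118 in replicate 1 and 5579 in replicate 2. Like both skn-1 peaks it ranked higher in replicate 1.

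The wdr-23 peak lay just upstream of the first annotated start of the gene, and its ranks in both replicates were close. The gene, WBGene00008419, lies on chromosome I from 7595776 to 7602221 on the plus strand and is 6446 bp long. The peak, from 7595531 to 7595860, had its summit at 7595696 in intergenic sequence, 80 bp upstream of the start of transcript D2030.9a.2. Its signal was 58.1, rank 92. In replicate 1 it had signal 37.4 and rank 83, and in replicate 2 signal 31.4 and rank 63, so it was among the 159 highest regions of each. The replicate summits lay 84 bp (replicate 1) and 212 bp (replicate 2) upstream of that start.

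The distance depends on the transcript chosen and on where its annotation begins. The peak was 809 bp upstream of D2030.9c.1, 811 bp upstream of D2030.9a.1, 1318 bp upstream of D2030.9b.1 and 2657 bp upstream of D2030.9d.1 and D2030.9e.1. D2030.9a.2 begins 750 bp before its coding sequence, and it shares that coding start with D2030.9a.1 and D2030.9c.1. Measured to the coding start, as is the case for skn-1c, the wdr-23 summit was 830 bp upstream, against 541 bp for the highest skn-1 peak.

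A weaker region lay inside wdr-23, in overlapping introns of transcripts a, b and c. Its summit at 7597605 was 591 bp into D2030.9b.1 and 748 bp upstream of D2030.9d.1, with signal 33.4 and rank 812. It ranked 5208 in replicate 1 and 1609 in replicate 2, so it was in both lists but among the highest 1000 of neither. The other 4 regions at wdr-23 ranked between 10857 and 27545 and each overlapped a region of 1 replicate only. They comprised 1 more in those overlapping introns and 1 in the 3' UTR of wdr-23, close to the start of the next gene. The last 2 were in introns of that gene, aex-1, which acts in the defecation programme of the intestine. The genes D2030.8 and D2030.11, upstream on the same strand, had no region of the joint list within the window.

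**Figure D2:**
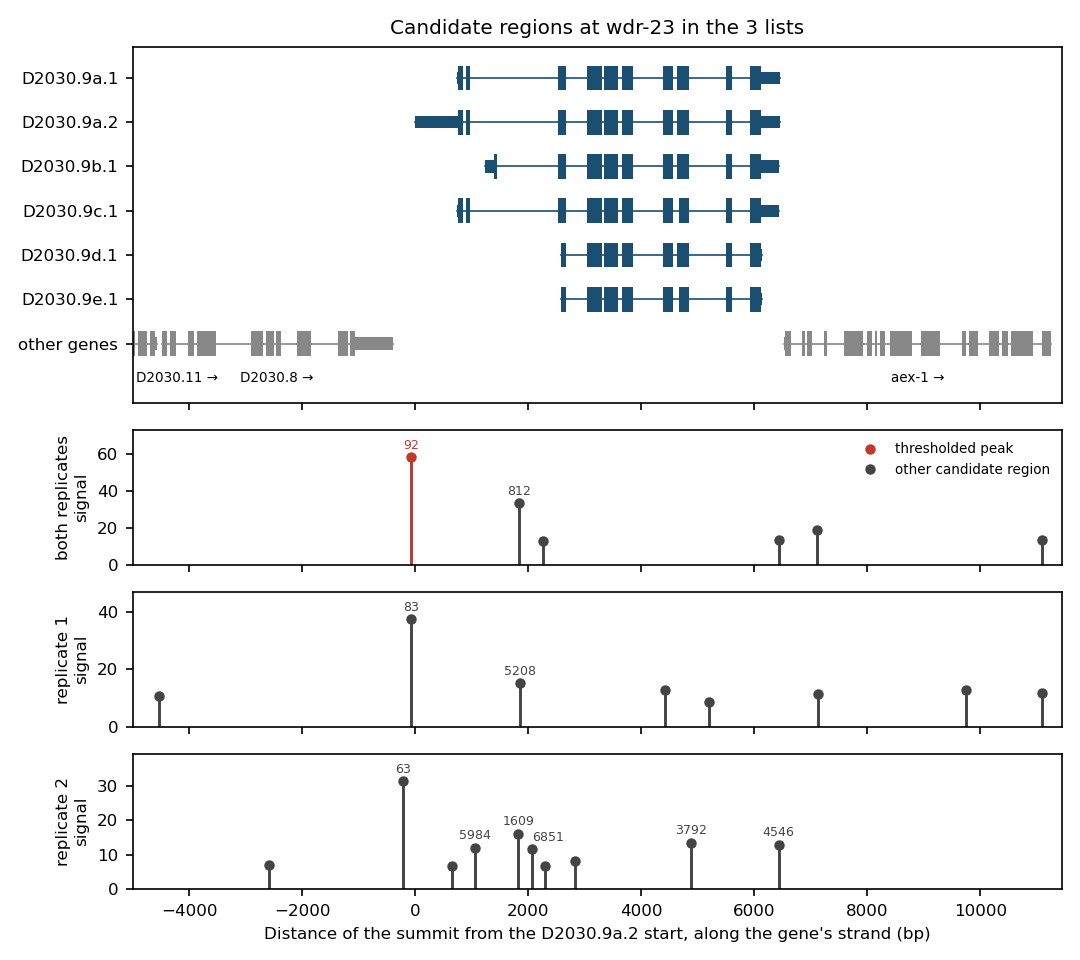
Candidate regions around wdr-23. The upper panel shows the 6 wdr-23 transcripts and other protein-coding genes, drawn as for skn-1, and the lower panels show the authors' signal at each summit against the distance in bp from the D2030.9a.2 start. Numbers are ranks of 10000 or better, and the peak before the start has rank 92 in the joint list, 83 in replicate 1 and 63 in replicate 2.

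Within each list, the signal can be set against that list's median. The highest skn-1 peak stood 4.21 times over the median in replicate 1 and 2.31 times in replicate 2, and the other skn-1 peak 3.23 and 2.04 times. The wdr-23 peak stood 3.30 times over the median in replicate 1 and 3.48 times in replicate 2. The replicates thus differed more at the skn-1 peaks than at the wdr-23 peak. The depth of each replicate is not known, and its part in this gap was not tested.

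Of the 159 thresholded peaks 134 were nuclear, and the others, which include the highest of the list, were mitochondrial. Among the 134 nuclear thresholded peaks, the wdr-23 peak was number 67 by signal and the skn-1 peaks were numbers 82 and 124. For the highest skn-1 peak the ranks in the replicates differed by a factor of 10.6, and 28 of the 133 peaks matched in each replicate, this one included, differed by as much in either direction. For the other skn-1 peak the factor was 9.47, reached by 31 peaks. For wdr-23 it was 1.32, reached by 111 peaks. In replicate 1 only 14 of the nuclear peaks ranked better than the highest skn-1 peak, while in replicate 2 only 32 ranked worse. Of the 134 peaks, 93 were among the 159 highest regions of replicate 1 and 73 among those of replicate 2, and 53 were in both sets, a count that includes wdr-23 and neither skn-1 peak.

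**Figure D3:**
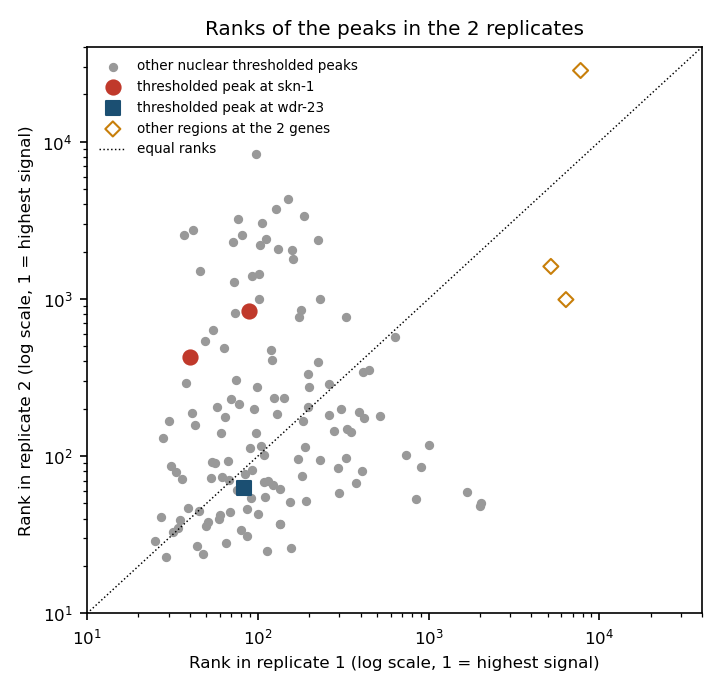
Ranks of the nuclear thresholded peaks in replicate 1 (x axis) and replicate 2 (y axis), both on log scales with rank 1 the highest signal, for the 133 peaks that overlap a region in each, with open diamonds for the 3 other regions at both genes that do so. The skn-1 peaks (red circles, ranks 40 and 424, 89 and 843) lie above the line of equal ranks, and the wdr-23 peak (blue square, ranks 83 and 63) lies just below it.

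Most of the weaker regions were not shared. Of the 16 candidate regions at both genes, 6 overlapped a region in each replicate (37.5%), 4 in replicate 1 only, 5 in replicate 2 only and 1 in neither. Over all nuclear candidate regions the share with a match in each was 34.7%, so the regions at these genes were near the general level. The replicate lists held 8 regions at skn-1 in replicate 1 and 11 in replicate 2, and 8 and 10 at wdr-23. Of these, 2 of 8 and 4 of 11 at skn-1, and 4 of 8 and 5 of 10 at wdr-23, overlapped no region of the joint list. Their best rank was 3792, that of a replicate 2 region in an intron of wdr-23.

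The deposited -log10 q values, also the authors', order these peaks differently from the signal. The wdr-23 peak had 2.28, the highest value in the list and shared by 96 thresholded peaks. The skn-1 peaks had 1.85 and 2.00 in the same joint list, with the larger value at the peak of lower signal. In the replicate lists, the wdr-23 peak and the highest skn-1 peak each had the highest value of the list. It was 2.41 in replicate 1, shared by 128 regions, and 2.51 in replicate 2, shared by 491. The other skn-1 peak had 2.41 in replicate 1 and 1.83 in replicate 2. In the joint list, the regions outside the threshold at both genes had 0.675 or less, the largest being that of the intronic wdr-23 region of rank 812. That wdr-23 region had 0.242 in replicate 1 and 1.32 in replicate 2. The region upstream of skn-1a, absent from replicate 1, had 1.84 in replicate 2.

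Both genes are long, and the window taken is longer for a longer gene. The part of gene length in the number of regions was not tested. The window was 19346 bp for skn-1 and 16446 bp for wdr-23, against 12027 bp for the median of 19973 nuclear protein-coding genes. A thresholded peak lay in or within 5 kb of 396 of these genes (1.98%). Having 2 such peaks, as skn-1 did, was found in 17 genes (0.0851%), and no gene had more. Since these peaks chose the genes, nothing is read from these shares. Any candidate region of the joint list was found at 87.3% of genes, and 766 genes (3.84%) had the 10 of skn-1 or more, while 5.72% were as long. The 6 of wdr-23 or more were found at 4486 genes.

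By the ranks in both replicates, the nuclear peaks most like the highest skn-1 peak lay nearest to agef-1 (ranks 49 and 537), pqn-41 (38 and 291), abhd-5.2 (63 and 484), C54E4.4 (55 and 630) and F07H5.13 (75 and 305). Likeness was the distance between log10 ranks over the 2 replicates, from 0.135 for agef-1 to 0.308 for F07H5.13. The positions differed. The agef-1 peak was intergenic and 148 bp upstream of the start, that of abhd-5.2 was in its coding exon, and those of pqn-41 and C54E4.4 were in introns, 2455 bp upstream and 2426 bp downstream of the nearest transcript start.

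Core letters of SKN-1 sites occurred in all 3 thresholded windows. The letters GTCAT and the letters ATCAT, searched on both strands and able to overlap each other, were each present in the 200 bp window of both skn-1 peaks and of the wdr-23 peak. Weaker regions held them too, and both cores together were in 3 of the 10 windows at skn-1 and 3 of the 6 at wdr-23. Both cores together were found in 14.2% of the nuclear thresholded windows and in 9.40% of all nuclear candidate windows. In the highest skn-1 peak they formed 1 run of 10 letters, with their middles at -36 and -31 bp from the summit along the strand of skn-1. In the other skn-1 peak they overlapped as GTCATCAT, near 40 bp past the summit. Separately, GTCAT was in 32.1% of thresholded and 22.5% of candidate windows, and ATCAT in 36.6% of thresholded and 38.2% of candidate windows. At skn-1 each was in 4 of the 10 windows, and at wdr-23 GTCAT was in 3 and ATCAT in 6 of the 6. These short letters are common, and a match here does not show that SKN-1 binds there.

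The 8-letter form of the SKN-1 site was searched after the windows had been read. It was written out as AATATCAT or AATGTCAT or ATTATCAT or ATTGTCAT or TATATCAT or TATGTCAT or TTTATCAT or TTTGTCAT, on both strands. It was in the window of the skn-1 peak of rank 149, as TTTGTCAT on the strand of skn-1, and not in that of rank 107. The wdr-23 peak held 2 matches. Of all 16 windows 5 held it, 3 of 10 at skn-1 and 2 of 6 at wdr-23, against 11.2% of thresholded and 11.1% of candidate windows.

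Repeats of GAGAGA were the other letters in all 3 windows. There were 12 overlapping matches at the skn-1 peak of rank 107, 3 at that of rank 149 and 1 at wdr-23. GAGAGA was in 41.8% of thresholded and 9.52% of candidate windows. The nuclear receptor core AGGTCA was in none of the 16 windows, against 6.72% of thresholded and 3.96% of candidate windows, and the related core AGTTCA was in 1, an aex-1 intron region of rank 10857. The bZIP sites TGACTCA and TGACGTCA were in none, with shares of at most 3.73% elsewhere. The GATA-type letters TGATAA were in 3 of the 6 windows at wdr-23, none of them the peak, and in none of the 10 at skn-1, against 8.96% of thresholded and 19.6% of candidate windows.

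Other genes of the SKN-1 pathway seldom had a peak at their own start. Of 135 genes in 7 lists, leaving out skn-1 and wdr-23, 8 had a thresholded peak in or within 5 kb (5.93%, against 1.98% of all nuclear protein-coding genes), and 2 had one within 1 kb of a transcript start (1.48%, against 0.526%). Those were cdc-48.1 and gst-5. The best candidate region of each listed gene had a median rank of 3678, against 6518 over all genes, with a gene that had none placed after the last rank. These genes were not picked at random, so the shares are descriptions.

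Regulators of SKN-1 had a peak in 2 of 25 cases (8.0%, against 1.98% of all genes). Those 2 were tir-1 and sek-1, which act in the p38 kinase cascade that activates SKN-1. The peak near tir-1 had signal 86.6 and lay 3869 bp from its nearest start, but only 296 bp upstream of rpl-3. That near sek-1 had signal 78.6 and lay 6546 bp from its start, but 374 bp upstream of eef-1A.2. Neither was therefore nearest to the regulator. The regulators were also long, with a median length of 6643 bp against 2027 bp for all genes, and their best candidate region had a median rank of 1066.

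The partners of WDR-23 in the ubiquitin ligase had no peak (0 of 3, where 1.98% of all genes had one). The adaptor gene ddb-1 had a best region of signal 24.1 and rank 4304. The scaffold gene cul-4 and the RING gene rbx-1 had no region of the joint list in their windows. The replicate lists did hold regions there, of best rank 2508 in replicate 1 and 427 in replicate 2 at cul-4, and 133 in replicate 1 and 12486 in replicate 2 at rbx-1. The best rank at each of those 2 genes was thus far higher in 1 replicate than in the other. These best regions were not matched by position, so they may be different regions.

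Among cofactors and partner factors, 2 of 16 had a peak (12.5%, against 1.98% of all genes). The lipid regulator gene sbp-1 had one of signal 54.9, 2444 bp upstream. The gene of the mitochondrial stress factor atfs-1 had one of signal 74.6, past the end of the gene and 3862 bp from its start. Both were the gene with the nearest protein-coding start.

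Genes that process SKN-1A had a peak in 2 of 9 cases (22.2%, against 1.98% of all genes). The peak of cdc-48.1, which encodes an AAA ATPase that extracts proteins from the endoplasmic reticulum, had signal 88.4 and lay 164 bp upstream. That near sel-11, a ubiquitin ligase gene of the same organelle, had signal 70.4 and lay 2733 bp upstream of it, and was nearer to F55A11.1. The processing genes png-1 and ddi-1 had none.

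Among its targets, the proteasome subunits had a peak in 1 of 32 genes (3.12%), rpn-8. It had 2 overlapping peaks, 3005 and 3204 bp upstream, that were nearer to the start of egg-5. The summit 3005 bp upstream lay in an exon of the noncoding gene sls-2.4. The detoxification and redox genes had a peak in 1 of 40 (2.50%), gst-5, a glutathione S-transferase gene with a peak of signal 71.6, 121 bp upstream. Both shares are near the 1.98% of all genes. The classic SKN-1 reporter genes gst-4 and gcs-1 had none. The embryonic endoderm genes had a peak in 0 of 10, and the highest region was that of the GATA factor gene elt-7, with signal 39.4 and rank 363.

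**Figure D4:**
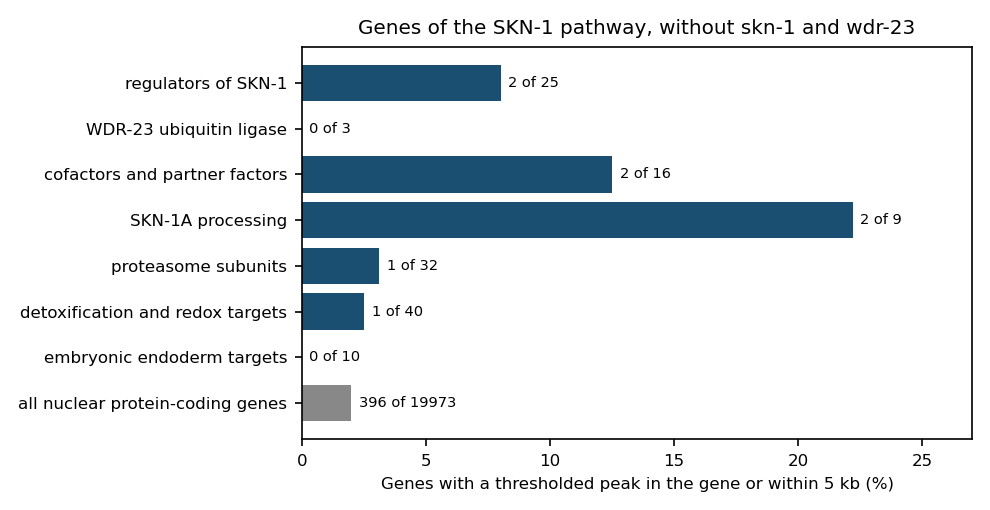
Share of genes in each SKN-1 pathway list with a thresholded peak in the gene or within 5 kb, in %, with counts beside the bars, and the share of all nuclear protein-coding genes as the grey bar. The lists hold 3 to 40 genes, so 1 gene moves a bar by 2.50 percentage points or more, and the grey bar stands at 1.98%.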

How the data were processed

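ChIP-seq peak lists of 2 biological replicates in 1 group were used. Replicate numbers are those of the labels. The authors' file listing names candidate lists for each replicate and for both together, all set against a control alignment, and a thresholded list drawn from these by irreproducible discovery rate. The deposited signal value of a region is the authors' and is set against a control. The deposited -log10 q value is also theirs. For the aligner and the peak caller, names and versions: not given in the sources used here. No read counts were used, so the depth is unknown.

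The ce11 lists were read with Python 3.11.15, numpy 2.4.6 and pandas 2.3.3, with Ensembl release 115 genes. No region reached past a chromosome end of the reference. Regions were placed by summit, and replicate regions were matched by an overlap of at least 1 bp, taking the best rank. Nearest starts were sought among protein-coding transcripts only, so a noncoding gene can lie closer. The ce10 lists were not used. Of 137 pathway symbols 1 was not found (edem-1). The members and lists were chosen with earlier results of these data known, and no test was run. Named genes were the members, their neighbours, pathway genes with a peak, the highest member of lists without one and the 5 peaks of most similar ranks. The genes png-1, ddi-1, gst-4, gcs-1, cul-4 and rbx-1 were named after their values were seen. Placement and motif search were tested on simulated data.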

Additional observations from a re-analysis of the deposited data

How the results depend on the processing

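The 2 thresholded peaks at skn-1 stood under every window from the gene body to 10 kb, under any overlap and with overlapping regions merged, but were 0 when only signals over the list's median counted and 0 to 2 in the highest regions of 1 replicate alone (0 without replicate 1, 2 without replicate 2). The highest skn-1 rank was then 424 without replicate 1 and 40 without replicate 2, against 107. The peak at wdr-23 was in the highest regions of each replicate, with rank 63 without replicate 1 and 83 without replicate 2. Its count was 0 in the gene body alone, since it lies upstream, and 0 with signal above the median. That median, 63.39, was taken over all 159 peaks, mitochondrial ones included. Over the 134 nuclear peaks the median was 58.06, and the wdr-23 peak had 58.13. Candidate regions at skn-1 numbered 3, 4, 5 and 16 for the gene body, 1, 2 and 10 kb, and 8 to 11 in 1 replicate alone. At wdr-23 they numbered 3 in the gene body and 8 to 10 in 1 replicate alone. The share of all genes with a peak was 0.145%, 0.836%, 1.12% and 3.26% for the gene body, 1, 2 and 10 kb, and 0.906% with signal above the median. Pathway genes with a peak numbered 0 in the gene body, 2 within 1 kb, 2 within 2 kb and 2 within 1 kb of a transcript start, and 9 to 10 in 1 replicate alone. Regions matched in each replicate fell to 3, of 6, with summits within 100 bp, and the matches lost included the highest skn-1 peak (112 bp off in replicate 1) and the wdr-23 peak (132 bp off in replicate 2). Motif matches numbered 17 in windows of 100 bp and 72 in windows of 400 bp, against 44. Smaller windows and stricter criteria take in less sequence or fewer regions by construction, and the cause of the differences between replicates was not tested. Depth is unknown, so it cannot be said which weaker regions were missed.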

Other observations

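The joined cores GTCATCAT were noticed in the skn-1 peak of rank 149 and then searched in all windows, so they are a description chosen after the values were seen. They were in 7 of 134 nuclear thresholded windows (5.22%) and 189 of 29975 candidate windows (0.631%), and in 3 of the 16 windows at both genes, among them the peak at wdr-23. A GC content of 40.0% or more, that of the wdr-23 peak, was found in 53.7% of thresholded and 10.2% of candidate windows, and its part in these shares was not tested. Letters seen in all 3 thresholded windows at these genes were also combined, so those windows hold the combination by choice. The core GTCAT with the core ATCAT and with GAGAGA repeats was present in 9 of the 134 thresholded windows (6.72%) and in 0.994% of candidate windows.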
